A study of Mus musculus with 6 samples.

Results

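The genes described here are 42 members of the interferon response, of the immunoproteasome and of antigen processing for MHC class I, together with Ubd, which encodes the ubiquitin-like modifier FAT10. They were looked for by gene symbol or older alias among 18193 genes, and 40 of the 42 had a probe set listed for that gene alone. Isg15 and Ifi44 had none and were not analysed here. Where a gene had several such probe sets, its probe set was chosen by the highest mean over all 6 arrays. Ubd had been picked on its difference between these same genotypes in an earlier look at the data. Its difference is therefore given as a description with no test, and the list as a whole was proposed with results of these data known.

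The arrays measured total RNA of white adipose tissue from 3 wild-type (WT) mice and 3 KSR2-/- mice, 1 mouse and 1 array each. All 6 animals were C57Bl6 females aged 6 months. KSR2 is a scaffold protein that holds kinases of the Raf, MEK and ERK cascade together. Neither the fat depot nor the deleted part of the gene is stated by the labels. Ksr2 itself measured 4.74, 4.04 and 4.47 on the wild-type arrays, numbered 1 to 3, and 4.47, 4.28 and 4.26 on the knockout arrays (log2 intensity). This low signal differed by −0.08 (SE 0.21) and does not check the genotype labels. Whether the array's Ksr2 probes lie in the deleted part was not tested.

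Interferons are secreted proteins that bind receptors on the cell surface and, through Janus kinases, activate complexes of STAT proteins and IRF9. These complexes enter the nucleus and switch on a large set of antiviral genes through a short DNA element, the interferon-stimulated response element. Interferon gamma acts mainly through STAT dimers on the gamma-activated site, and it also induces the immunoproteasome and the peptide transporter that load MHC class I molecules. FAT10 marks proteins for degradation by the proteasome. It is known for strong induction by tumour necrosis factor and interferon gamma acting together, and its gene lies in the MHC region, which is why its values are set against the interferon genes here.

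The tissue label was borne out by adipocyte markers, whose mean log2 intensity over 8 measured genes was 11.63 to 12.01 in wild type and 11.04 to 12.28 in knockout. Knockouts 1 and 2, at 11.04 and 11.35, lay below every wild type, and knockout 3, at 12.28, lay above. Of the 8 markers, 2 had a difference above 0. At an unadjusted limma p under 0.05, 1 was higher and 3 were lower, beside 6.71% and 5.38% of all genes. Values are log2 of the deposited intensity throughout, and each array is 1 animal. By the animal numbers in the sample titles, wild types 1 and 2 and knockouts 1 and 2 form a higher series, and wild type 3 and knockout 3 form a lower pair. Differences within the higher series and the lower pair are plotted for every member and given in the text for some. Knockout 3 stood apart from knockouts 1 and 2 in its macrophage markers, and the counts of members past each threshold are given with and without it. RNA integrity, read as the 3' minus 5' difference between Gapdh control probe sets, stood out in wild type 3, at 4.18 log2 beside 0.07 to 1.46 on the other arrays. The number of arrays limits the precision, and with 3 a group the median standard error of a gene's difference was 0.22 log2.

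The sequences before the genes' starts are shown for Ubd, for a pair of class I genes and for 6 members whose windows carry the interferon element, because the comparison between them is the one the data bear on. They come from RefSeq on the GRCm38.p6 build, where 33 of the 42 members had an entry, and the searched window was the 250 bases before a start. Capitals mark matches, on either strand, to the core of the interferon-stimulated response element (a pair of GAAA runs with any 2 bases between them), the gamma-activated site (TTCNNNGAA) and an NF-kB site (GGGA, any base, then TTTCC). A wider NF-kB consensus was added after the Ubd sequence had been seen, and its matches are in capitals too. The Ubd window lies at chr17:37193642-37193891 on the plus strand.
Ubd: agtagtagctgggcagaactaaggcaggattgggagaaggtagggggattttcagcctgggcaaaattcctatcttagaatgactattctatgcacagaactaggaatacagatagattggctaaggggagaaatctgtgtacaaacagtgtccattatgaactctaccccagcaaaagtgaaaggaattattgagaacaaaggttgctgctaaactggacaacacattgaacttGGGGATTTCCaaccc
The Ubd window held no match to the interferon core, the gamma-activated site or the narrower NF-kB letters, and 1 match to the wider NF-kB consensus, from 15 to 6 bases before the start.

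Psmb9 and Tap1 are neighbours on chromosome 17 that start back to back, and the bases shown are all those between both starts (chr17:34187331-34187555, plus strand, running towards Tap1).
Psmb9 to Tap1: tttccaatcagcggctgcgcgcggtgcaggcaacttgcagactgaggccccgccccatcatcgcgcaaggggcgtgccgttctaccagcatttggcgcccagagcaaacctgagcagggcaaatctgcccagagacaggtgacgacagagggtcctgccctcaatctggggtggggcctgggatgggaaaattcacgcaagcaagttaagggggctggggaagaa
No match to any of these motifs lies in that stretch.

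The stretches shown are for 6 of the 12 members with the interferon core, chosen to cover effectors, sensors, GTPases and B2m. Each is read along its gene's own strand. They run 20 bases to either side of the interferon matches (in B2m also the NF-kB match), or to the start where that is nearer. Oas1a also holds a gamma-activated match from 98 to 90 bases before its start, outside the stretch shown. B2m lies at chr2:122147528-122147590 (plus), Ifit1 at chr19:34640765-34640833 (plus), Ifit3 at chr19:34583353-34583436 (plus), Gbp3 at chr3:142559979-142560034 (plus), Rsad2 at chr12:26456543-26456592 (minus) and Oas1a at chr5:120907526-120907565 (minus).
B2m: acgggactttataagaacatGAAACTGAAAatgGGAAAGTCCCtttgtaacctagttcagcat
Ifit1: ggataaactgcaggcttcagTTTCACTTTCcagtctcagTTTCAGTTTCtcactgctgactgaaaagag
Ifit3: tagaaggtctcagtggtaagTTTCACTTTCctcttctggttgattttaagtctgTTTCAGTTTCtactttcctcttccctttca
Gbp3: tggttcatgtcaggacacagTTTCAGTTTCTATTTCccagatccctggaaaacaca
Rsad2: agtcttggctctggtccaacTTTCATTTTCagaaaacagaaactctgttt
Oas1a: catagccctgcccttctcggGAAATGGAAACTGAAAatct
In Gbp3 and Oas1a a pair of overlapping matches forms the run of capitals, and in B2m the interferon core is followed by an NF-kB match.

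The interferon core was found in 12 of the 33 members with an entry (36.4%) and in 3.46% of all 27025 genes in the promoter table. The gamma-activated site was found in 7 of the 33 (21.2%) against 8.13% of all genes. The narrower NF-kB letters were found in 1 member, B2m, against 0.414% of all genes, and the wider consensus in 6 of the 33 (18.2%) against 8.23%. Among the 6 class I processing genes with an entry, 1 held the interferon core (B2m) and 1 the gamma-activated site (Psmb8). A match is a description of letters and not evidence of binding.

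Ubd was the member that separated the genotypes most widely. Its log2 intensity was 6.84, 5.80 and 6.49 on the wild-type arrays and 11.06, 11.17 and 9.63 on the knockout arrays. Every knockout lay far above every wild type, and knockout 3 was the lowest of the knockouts. The means were 6.37 ± 0.53 and 10.62 ± 0.86 (SD, n = 3 each), a difference of 4.24 log2 or 18.9-fold, with 4.80 among the higher-series animals and 3.14 in the lower pair. It ranked 4 from the top among the differences of all 18193 genes. The difference ran from 3.95 to 4.74 with 1 array left out, and was 4.74 without knockout 3. The array carried 1 probe set for Ubd, so no other probe set bears on these values.

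None of the remaining 39 measured members differed by as much. Their differences ran from −0.82 to 0.66 log2 with a median of −0.16, beside a median of −0.04 over all genes. Limma at an adjusted p under 0.05 passed 0 of the 39 in either direction, where the background over all genes was 0.0055% higher and 0% lower, and the members' adjusted p by limma ran from 0.197 to 0.994. At an unadjusted p under 0.05, 0 of the 39 were higher, against 6.71% of all genes, and 6 were lower (15.4%), against 5.38%. The groups did not overlap with the knockouts above in 1 member, Rsad2 (background 7.72%), and with the knockouts below in 7 members (background 8.56%). Of the 39, 25 had a difference below 0 (64.1%), against 55.6% of all genes.

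Leaving out knockout 3 passed 574 genes higher (3.16%) and 242 lower (1.33%), and 0 of the 39 members were among them. The members lower at an unadjusted p under 0.05 were Usp18, Cmpk2, Ifih1, Ifit1, Rtp4 and Gbp3. That count of 6 was 2 without wild type 2, 2 without knockout 1 and 5 without knockout 3. The 5 without knockout 3 were Usp18, Cmpk2, Ifih1, Ifit3 and Xaf1, so that Ifit1, Rtp4 and Gbp3 no longer passed. The count higher was 1 without wild type 1 and 2 without knockout 3, where it held Oasl1 and Rsad2. The share of all genes at an unadjusted p under 0.05 was not taken with an array left out. These counts therefore cannot be set against the shares of the fit to all 6 arrays.

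**Figure D1:**
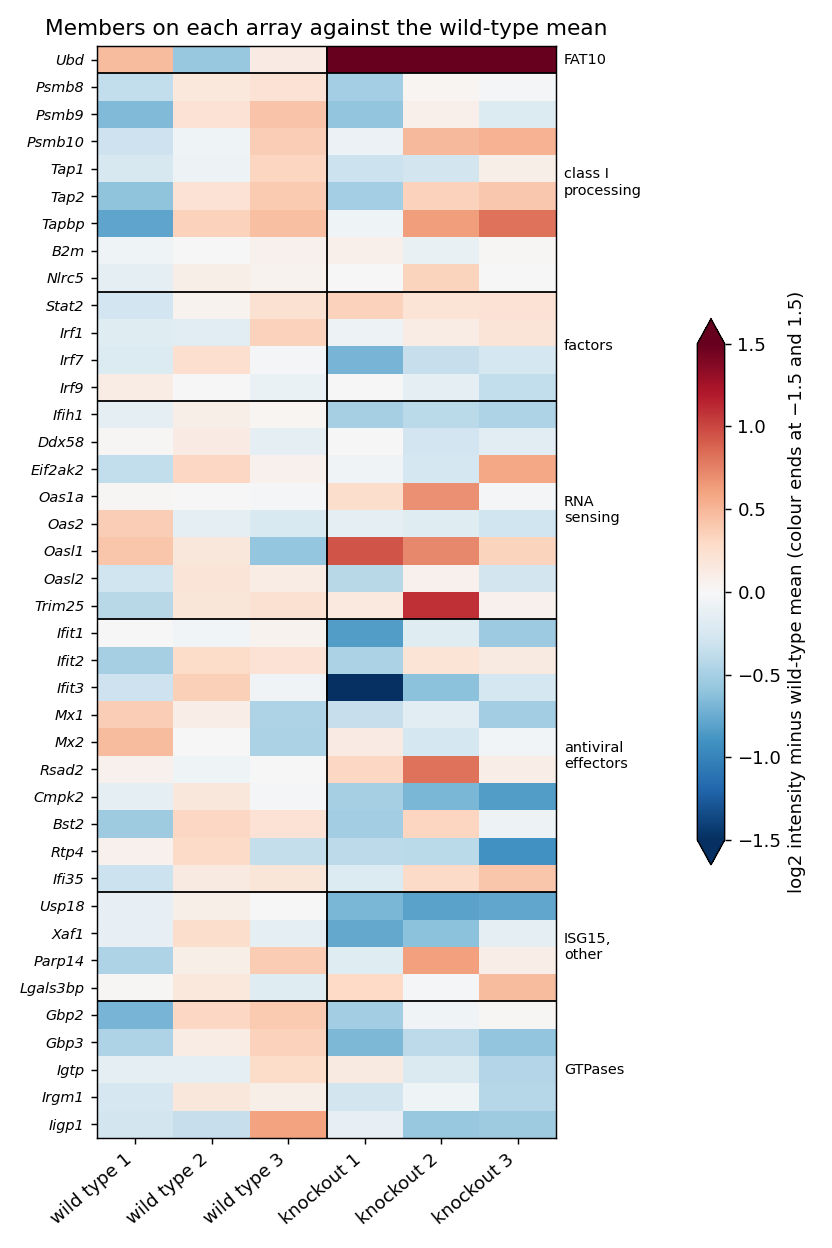
Log2 intensity of each of the 40 measured members on each array (columns) minus that member's wild-type mean, in colour from −1.5 (blue) to 1.5 (red), with rows grouped by role and a vertical line between the genotypes. Ubd is past the red end on all 3 knockout arrays (difference of means 4.24 log2), Ifit3 is past the blue end on knockout 1, and the other 38 members stay within the scale on every array.

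The class I processing genes lay close to wild type, on either side of it. Psmb8, Psmb9 and Psmb10 encode the catalytic subunits that replace those of the ordinary proteasome when an immunoproteasome forms. Psmb8 measured 8.74, 9.27 and 9.33 in wild type and 8.60, 9.14 and 9.09 in knockout. Psmb9 measured 7.46, 8.34 and 8.55 against 7.53, 8.20 and 7.92, and Psmb10 measured 8.86, 9.10 and 9.54 against 9.08, 9.66 and 9.69. The groups overlapped in each of the 3 genes, and within each genotype the first array was the lowest. Differences were −0.17 (SE 0.24), −0.23 (SE 0.32) and 0.31 (SE 0.25) log2, and limma adjusted p was 0.851, 0.852 and 0.704.

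Tap1 and Tap2 form the transporter that moves peptides into the endoplasmic reticulum, and Tapbp, tapasin, bridges it to the class I molecule. Psmb9, Tap1, Psmb8 and Tap2 lie in a row on chromosome 17 with no other protein-coding gene between them, and 139 protein-coding genes separate Tap2 from Ubd. Tap1 measured 6.97, 7.13 and 7.53 in wild type and 6.89, 6.94 and 7.30 in knockout. Tap2 measured 6.85, 7.67 and 7.84 against 6.94, 7.79 and 7.86, and Tapbp measured 9.05, 10.19 and 10.29 against 9.78, 10.47 and 10.66. The groups overlapped in all 3 genes. Their differences were −0.16 (SE 0.21), 0.08 (SE 0.35) and 0.46 (SE 0.39), the last being 0.06 without wild type 1, 0.72 without knockout 1 and 0.28 without knockout 3.

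B2m, the light chain of every class I molecule, was the steadiest member on the probe sets used, with all 6 arrays between 13.17 and 13.36 and a range of 0.20 log2. Its second probe set, with a mean of 12.81, spread more, from 12.66 to 13.12. Nlrc5, the transactivator of class I genes, measured 7.50 ± 0.12 in wild type and 7.62 ± 0.18 in knockout (SD, n = 3 each). Over the 8 class I processing genes, 4 had a difference above 0 and 4 below, the median was 0.03 (range −0.23 to 0.46, and −0.01 with arrays centred on their median gene), and 0 had an unadjusted limma p under 0.05. Their mean on each array was 8.56, 9.07 and 9.25 in wild type and 8.71, 9.15 and 9.17 in knockout. The highest and the lowest of these 6 means were both in wild type. In 5 of the 8 genes wild type 1 held the lowest value, an array that was also the lowest in 29.0% of all genes.

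The class I molecules and the ordinary proteasome give the setting of these values. Of 13 class I heavy chains and loading factors listed, 9 were measured, with 0 past the adjusted threshold. At an unadjusted limma p under 0.05, 1 was higher and 1 lower (11.1% each), beside 6.71% and 5.38% of all genes. Calr, a chaperone of peptide loading, differed by 0.41 (SE 0.17, limma adjusted p = 0.413). Erap1, the aminopeptidase that trims peptides for class I, differed by −0.72 (SE 0.30, limma adjusted p = 0.409) and its groups overlapped.

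Psmb5, Psmb6 and Psmb7, the subunits that the immunoproteasome exchanges, differed by 0.39 (SE 0.26), 0.01 (SE 0.25) and −0.24 (SE 0.19) log2. The sign of Psmb6 turned with quantile normalization repeated (−0.02) and with arrays centred on their median gene (−0.03). The 11 other core subunits measured had differences of −0.18 to 0.14, with Psma5 at 0.14 and Psma2 at 0.09 as the 2 smallest in p. Psme1, a subunit of the interferon-inducible proteasome activator, differed by −0.14 (SE 0.33). Among the 7 activator and assembly genes measured, Psme4 (0.28, SE 0.15) and Psmg1 (−0.38, SE 0.28) had the smallest p. In none of these 21 proteasome genes was the unadjusted limma p under 0.05.

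**Figure D2:**
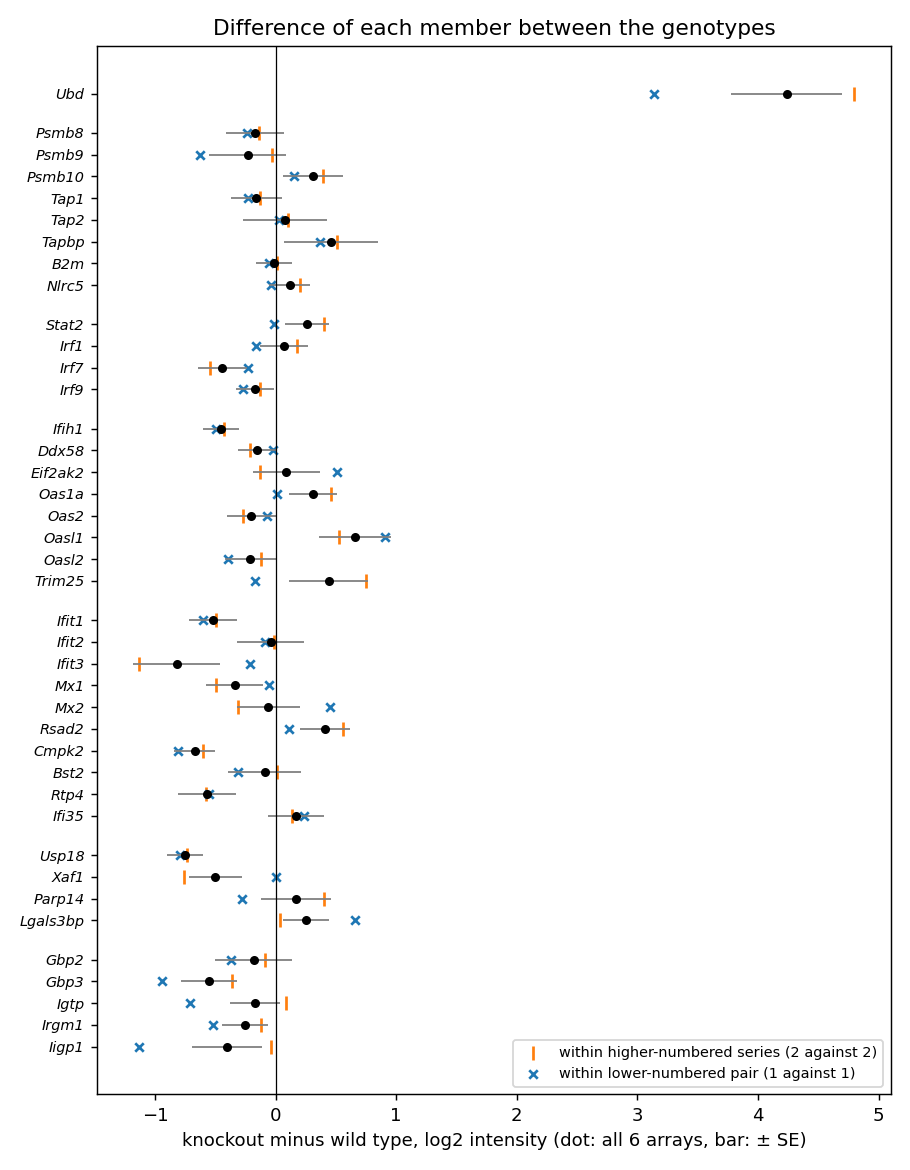
Knockout minus wild type in log2 intensity for each measured member, with a dot for all 6 arrays, a bar of 1 standard error from the limma fit, an orange mark for the higher series and a blue cross for the lower pair. Ubd lies at 4.24 and every other member between −0.82 and 0.66.

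Among the factors that carry the interferon signal into the nucleus, Irf7, the regulator that amplifies type I interferon, measured 6.23, 6.69 and 6.41 in wild type and 5.74, 6.10 and 6.18 in knockout. Each knockout lay below each wild type, by a narrow margin between wild type 1 and knockout 3. The difference was −0.44 (SE 0.20, limma adjusted p = 0.445). Stat2, Irf1 and Irf9 overlapped between the groups, with differences of 0.26 (SE 0.18), 0.07 (SE 0.20) and −0.17 (SE 0.16).

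Of the 8 genes that sense viral RNA or act on it, 4 had a difference above 0 and 4 below. Ifih1, which encodes the double-stranded RNA sensor MDA5, measured 8.54, 8.76 and 8.70 in wild type and 8.17, 8.27 and 8.21 in knockout. Each knockout was lower than each wild type and the arrays of a genotype lay close together. The difference was −0.45 (SE 0.15, limma adjusted p = 0.309), with −0.43 and −0.49 within the animal series and pair. The companion sensor Ddx58, known as RIG-I, measured 7.36 ± 0.13 and 7.21 ± 0.14 (SD, n = 3 each) and overlapped.

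Oasl1, an oligoadenylate synthetase-like protein that restrains Irf7 translation, had the highest difference of the 39 members. It measured 5.56, 5.31 and 4.56 in wild type and 6.08, 5.86 and 5.47 in knockout. Knockout 3 lay below wild type 1, so the groups overlapped, and the difference was 0.66 (SE 0.30, limma adjusted p = 0.442), or 0.37 without wild type 3. Oas1a, a synthetase of the 2-5A messenger, differed by 0.31, Oas2 by −0.20 and Oasl2 by −0.21. Eif2ak2, the kinase PKR, differed by 0.09 and Trim25, the ubiquitin ligase that acts with RIG-I, by 0.44 (0.23 without wild type 1 and 0.11 without knockout 2), and both overlapped. These 4 Oas family genes lie on chromosome 5, as Ksr2 does, with 23 to 37 protein-coding genes between each of them and Ksr2.

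Of the 10 antiviral effectors measured, 8 had a difference below 0, beside 55.6% of all genes. In 3 of the 10 the knockouts lay below the wild types without overlap, beside 8.56% of all genes. Ifit1, which binds viral RNA caps, measured 6.45, 6.42 and 6.51 in wild type and 5.62, 6.28 and 5.91 in knockout. The wild types agreed closely, the knockouts spread, and the difference was −0.52 (SE 0.20, limma adjusted p = 0.368). Its relative Ifit3 measured 7.99, 8.66 and 8.25 against 6.71, 7.68 and 8.04, where knockout 3 reached the wild-type range. Its difference of −0.82 (SE 0.36) was the lowest of the members, with −0.44 without knockout 1, −1.10 without knockout 3, −1.13 among the higher-series animals and −0.21 in the lower pair. Ifit2 differed by −0.04 and overlapped.

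Cmpk2 and Rsad2 are direct neighbours on chromosome 12 with no protein-coding gene between them, and they lay on opposite sides of wild type. Cmpk2, a mitochondrial nucleotide kinase, measured 7.01, 7.32 and 7.12 in wild type and 6.65, 6.47 and 6.31 in knockout, all knockouts below all wild types. Rsad2, the antiviral enzyme viperin, measured 8.53, 8.39 and 8.45 against 8.77, 9.28 and 8.56, all knockouts above all wild types, knockout 3 by little. The differences were −0.67 (SE 0.17, limma adjusted p = 0.248) for Cmpk2 and 0.41 (SE 0.21, limma adjusted p = 0.511) for Rsad2, or 0.21 without knockout 2. A dimmer second probe set of Cmpk2, with a mean of 3.92, differed by −0.02, and the mean of both probe sets differed by −0.35. The 2 further probe sets of Rsad2 differed by 0.28 and 0.15 and overlapped.

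Rtp4, an interferon-induced chaperone of membrane receptors, measured 9.16, 9.39 and 8.74 in wild type and 8.71, 8.69 and 8.19 in knockout. The highest knockout lay just below the lowest wild type, and the difference was −0.57 (SE 0.24, limma adjusted p = 0.405), or −0.26 for the mean of its probe sets. Bst2, the tether that holds virus particles on the cell, Ifi35 and the dynamin-like GTPases Mx1 and Mx2 differed by −0.09, 0.17, −0.34 and −0.06, and the groups overlapped in all 4.

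Usp18 had the smallest p of the 39 members. It encodes the protease that removes ISG15 from proteins and that also restrains the type I interferon receptor. It measured 6.72, 6.93 and 6.85 in wild type and 6.15, 6.04 and 6.06 in knockout. The groups lay well apart, with little spread in either, knockout 3 included. The difference was −0.75 (SE 0.15), or 1.68-fold lower, with −0.73 and −0.79 within the animal series and pair, and it did not pass limma over all genes (adjusted p = 0.197, and 0.0824 to 0.711 over 13 alternatives).

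Xaf1, a proapoptotic interferon-induced protein, measured 7.95, 8.33 and 7.92 against 7.30, 7.46 and 7.92. Knockout 3 and wild type 3 were equal to 2 decimals, and the difference of −0.50 (SE 0.22) was −0.76 in the higher series. Parp14, an ADP-ribosyltransferase, and Lgals3bp, a secreted galectin-binding protein, differed by 0.17 and 0.25 and overlapped.

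All 5 interferon-inducible GTPases had a difference below 0, with a median of −0.25. Gbp3 measured 7.89, 8.46 and 8.70 in wild type and 7.68, 7.96 and 7.76 in knockout. Wild type 1 lay within the knockout range, and the difference was −0.55 (SE 0.23, limma adjusted p = 0.413). Gbp2, Igtp, Irgm1 and Iigp1 differed by −0.18, −0.17, −0.25 and −0.40 and overlapped. Wild type 3 stood out in Iigp1, with 9.64 where the other 5 arrays measured 8.47 to 8.92, and the difference was −1.13 in the lower pair and −0.04 among the higher-series animals. Over the arrays without wild type 3 it was −0.10, and with the Gapdh covariate −0.26.

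Set side by side, Ubd differed by 4.24, the 8 class I processing genes by a median of 0.03 and the 31 other interferon genes by a median of −0.17. In the last group 21 of 31 were below 0 (67.7%, against 55.6% of all genes). Their mean on each array was 7.26, 7.51 and 7.43 in wild type and 7.16, 7.35 and 7.23 in knockout. Knockout 2 lay above wild type 1, so these means overlapped, and they were 7.40 ± 0.12 and 7.25 ± 0.10 (SD, n = 3 each). The class I mean was 8.96 ± 0.36 and 9.01 ± 0.26. The array that was lowest for Ubd, wild type 2, held the highest value in 11 of the 31 other interferon genes (35.5%), against 19.5% of all genes. Knockout 2, the highest for Ubd, held the lowest value in 3 of the 31 (9.68%), against 18.6% of all genes. Each of these counts rests on 1 array picked by its Ubd value, and a relation to Ubd was not tested.

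Ubd was above 0 in both sets of animals. Members whose sign differed by a wide gap between the higher series and the lower pair were Trim25 (0.75 and −0.17), Eif2ak2 (−0.13 and 0.51), Parp14 (0.40 and −0.28), Mx2 (−0.31 and 0.45) and Igtp (0.09 and −0.71). Of the 31 other interferon genes, 20 were below 0 in the higher series, beside 9725 of all 18193 genes, and 24 in the lower pair, beside 10776. The 11 measured members with the interferon core in the window shown had a median difference of −0.17, and the 19 with an entry, without the core and other than Ubd had a median of −0.15.

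**Figure D3:**
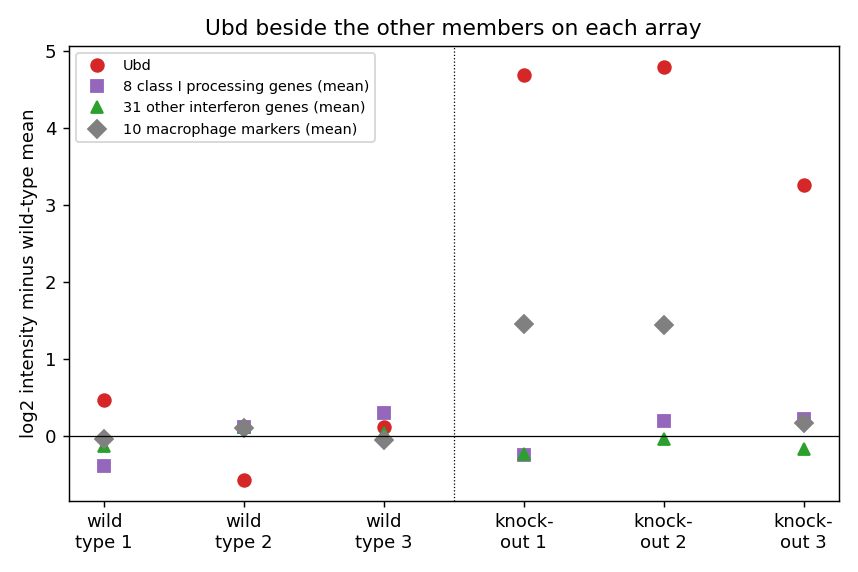
Log2 intensity on each array minus the wild-type mean for Ubd (circles), the mean of 8 class I processing genes (squares), the mean of 31 other interferon genes (triangles) and the mean of 10 macrophage markers (diamonds). Ubd lies over 3 log2 above its wild-type mean on each knockout array, the macrophage mean is raised on knockouts 1 and 2 and near wild type on knockout 3, and neither gene group separates the genotypes.

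The pathway genes outside the list came from lists of ligands, receptors and partners. Interferon genes themselves gave low signals. Ifng, near the 20th percentile of all values (2.93), measured 2.66, 2.62 and 2.71 in wild type and 2.63, 2.99 and 2.51 in knockout, and Ifnb1 differed by −0.37 (SE 0.18) between 3.96 ± 0.20 and 3.59 ± 0.20 (SD, n = 3 each). Ifna5 differed by −0.14. None of the 6 ligand genes measured had an unadjusted limma p under 0.05.

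Of 14 receptor and JAK-STAT genes measured, limma passed 0. At an unadjusted p under 0.05, 4 were higher, beside 6.71% of all genes, and all 4 were without overlap, beside 7.72%. Stat3, which carries signals of the interleukin 6 family, measured 8.45, 8.02 and 7.84 in wild type and 8.85, 8.79 and 8.90 in knockout. Its difference was 0.74 (SE 0.19, limma adjusted p = 0.248), or 0.46 for the mean of its probe sets. Ifngr2, a chain of the interferon gamma receptor, differed by 0.84 (SE 0.31, limma adjusted p = 0.353), or 0.53 without knockout 1. The other 2 were Il10rb at 0.65, a chain shared by interleukin 10 and interferon lambda receptors, and the kinase Tyk2 at 0.51, both named after their values were seen. In the lower pair they differed by 0.11 and 0.03. Il10rb was 0.43 without knockout 2, and Tyk2 was 0.20 for the mean of its probe sets.

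Tumour necrosis factor and NF-kB, the known inducers of FAT10, were represented by 16 listed genes. Of the 15 measured, 13 had a difference above 0, where 55.6% of all genes were below 0, and 0 passed limma over all genes. At an unadjusted p under 0.05, 6 were higher and 1 lower, beside 6.71% and 5.38% of all genes. In the lower pair 7 of the 15 were below 0, with a median difference of 0.01. In the higher series 2 of the 15 were below 0, with a median of 0.51. Nfkb2, a subunit of the alternative NF-kB pathway, measured 6.00, 6.29 and 6.33 in wild type and 6.93, 6.96 and 7.14 in knockout. The knockouts lay together above the wild types, with a difference of 0.81 (SE 0.16, limma adjusted p = 0.197) that was 0.80 and 0.81 within the animal series and pair and 0.74 without knockout 3 (limma adjusted p = 0.0991). Tnf measured 4.59, 4.39 and 4.47 against 4.66, 5.07 and 4.65, a difference of 0.31 (SE 0.18, limma adjusted p = 0.556).

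The chemokine Cxcl9, a target of interferon gamma, measured 8.82, 9.05 and 9.22 in wild type and 8.39, 8.05 and 7.35 in knockout. Each knockout lay below each wild type, and the difference was −1.10 (SE 0.28, limma adjusted p = 0.248). It was −0.81 without knockout 3 (limma adjusted p = 0.109) and −0.69 for the mean of its probe sets. The related Cxcl10, which tumour necrosis factor also induces, measured 4.93, 5.04 and 5.40 against 6.70, 6.53 and 5.34. Knockout 3 lay within the wild-type range, and the difference was 1.07 (SE 0.36, limma adjusted p = 0.319). It was 1.49 without knockout 3 (limma adjusted p = 0.0176), a fit that passed 3.16% of all genes higher. With any other array left out it was 0.81 to 1.20 (limma adjusted p 0.409 to 0.781).

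Tnfrsf1b, a receptor for tumour necrosis factor, differed by 1.05 (limma adjusted p = 0.308), or 1.40 without knockout 3 (limma adjusted p = 0.0373) and 0.50 for the mean of its probe sets. Icam1 differed by 0.83, Il6 by 0.63 and Relb by 0.48, none past limma over all genes. Without knockout 3 they differed by 1.05, 0.84 and 0.39, and Il6 by 0.40 without knockout 1. Il6 was dim, below 4 on every array, with 2.60, 2.65 and 2.94 in wild type and 3.82, 3.31 and 2.95 in knockout. Within the lower pair the differences of Cxcl10, Tnfrsf1b, Icam1 and Il6 were −0.05, −0.05, 0.05 and 0.01, whereas Relb differed by 0.51. These 5 genes were named after their values were seen.

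**Figure D4:**
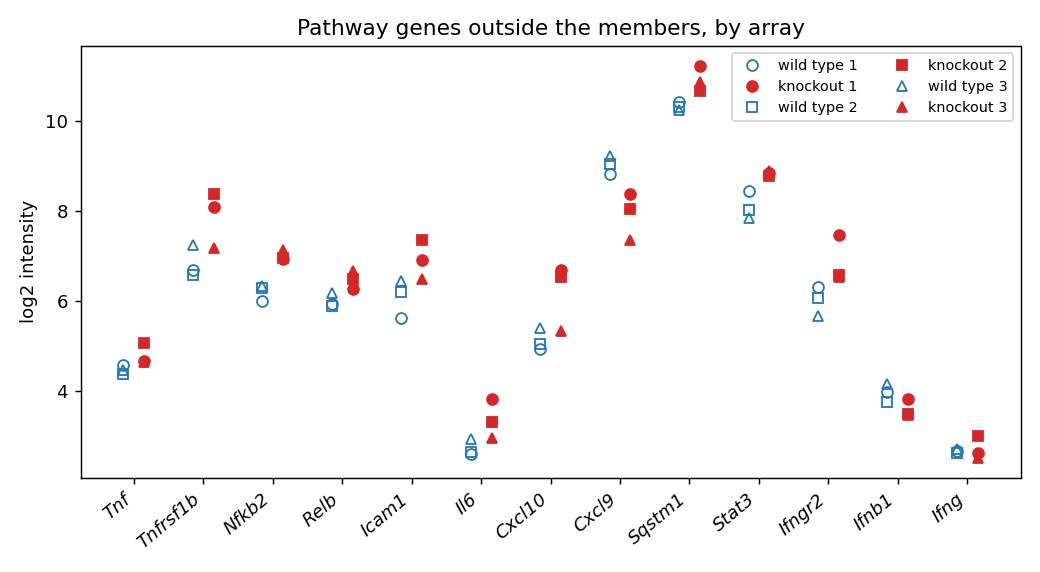
Log2 intensity of 13 pathway genes outside the members on each array, with open blue symbols for wild types 1 to 3 and filled red symbols for knockouts 1 to 3 (circle, square and triangle for replicates 1, 2 and 3). Nfkb2 and Stat3 lie higher and Cxcl9 lower on all knockout arrays, while in Cxcl10 and Tnfrsf1b knockout 3 lies among the wild types. Levels of different genes cannot be compared.

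FAT10 is activated by Uba6 and binds the autophagy receptor p62, which Sqstm1 encodes. All 5 genes measured of this short list had a difference above 0, although 4 of them were below 0 in the lower pair. Sqstm1 measured 10.43, 10.32 and 10.25 in wild type and 11.24, 10.67 and 10.88 in knockout, with no overlap and a difference of 0.60 (SE 0.19, limma adjusted p = 0.303), or 0.34 for the mean of its probe sets. Ube2z, the conjugating enzyme that works with Uba6, differed by 0.28 (SE 0.26). In the matching ISG15 system the conjugating enzyme Ube2l6 differed by 0.36 (SE 0.23) and the activating enzyme Uba7 by −0.05 (SE 0.20).

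In whole tissue, a change in the number of cells of a type and a change in RNA per cell cannot be told apart. Macrophage markers, 9 of 10 of them above 0, had a mean of 8.71 to 8.86 in wild type and 10.21, 10.20 and 8.92 in knockouts 1 to 3, so that knockout 3 was near wild type where Ubd was 9.63. The mean of conventional and mature dendritic markers, 6 of 8 above 0 and Xcr1 below 4 on every array, ran from 5.86 to 6.33 in wild type and 6.28 to 6.91 in knockout. That of neutrophil markers, 5 of 6 above 0 and Cxcr2 below 4 on every array, ran from 4.65 to 5.26 and 5.58 to 5.90. The part of these cells in the values of Ubd and the NF-kB genes was not tested.

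The lymphocyte means overlapped between the genotypes. The T cell mean, with 9 of 10 markers above 0, was 4.89 to 6.07 in wild type and 5.30 to 6.16 in knockout. The B cell mean, with 6 of 8 above 0, was 4.63 to 6.12 and 5.35 to 5.80, and the natural killer mean, with 3 of 8 above 0, was 4.60 to 5.27 and 4.74 to 5.34, with Ncr1 below 4 on every array. Plasmacytoid dendritic markers, a list of 9 that includes Bst2 (−0.09), had 4 above 0. Their means were 6.29 to 6.44 in wild type and 6.46 to 6.54 in knockout, which do not overlap, by a narrow margin.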

How the data were processed

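Gene expression was measured on Affymetrix arrays in white adipose tissue of 3 wild-type and 3 knockout mice. The authors deposited linear intensities computed by RMA, per the submitters' processing notes, which give no version. RMA summarises probe sets over all arrays together. Of 45101 probe sets, 34945 were listed for 1 gene in the platform annotation, 932 for several and 9160 for none, and 64 were controls. Symbols were updated by gene identifier to RefSeq (GRCm38.p6), which matched 34741. Log2 was taken with no pseudocount (lowest intensity 2.96) and no filter on dim genes.

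Genotypes were compared over 18193 genes with limma 3.58.1 in R 4.3.3 (eBayes, no trend, 3.06 prior degrees of freedom). Tests were two-sided, p-values were adjusted over all genes by Benjamini-Hochberg, and the threshold was 0.05. Tested on simulated data of 18193 genes, the fit recovered 16% of 2-fold and 65% of 4-fold differences, with 1 false call. Every member is named, and of each pathway list the 2 genes with the smallest p, besides Psmb5 to Psmb7, Psme1, Ifng, Tnf and Ksr2. Psme2 was not analysed here. Replicate numbers follow accession order and pair no samples. The members and lists were chosen with earlier results of these data known. No correction was made for cell composition. Alternatives were a filter at the median gene mean, the mean of a gene's probe sets, quantile normalization repeated, median centring, eBayes with trend, a block for the animal series, the Gapdh difference as a covariate, and each array left out.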

Additional observations from a re-analysis of the deposited data

How the results depend on the processing

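No paired analysis was possible because the labels give no shared replicate numbers. Limma passed 0 of the 39 members other than Ubd under all 13 alternatives. The count lower at an unadjusted p under 0.05 was 6, and 3 with the filter at the median gene mean, 2 with eBayes with trend, 4 with the Gapdh covariate, 5 with the animal block, 7 with the mean of all probe sets, 8 with quantile normalization repeated, 8 with arrays centred and 2 to 6 with 1 array left out. The count higher was 0, and 1 with a block for the animal series (higher series against lower pair) and 0 to 2 with 1 array left out. The cause was not tested. The share of all genes at an unadjusted p under 0.05 was not taken under the alternatives, so these counts have no background beside them. The median of the class I processing genes was −0.13 to 0.09, and that of the other interferon genes −0.25 to −0.11, over all alternatives.

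Signs turned only in members and pathway genes with differences under 0.2 log2. B2m was 0.00 with the mean of all its probe sets, with quantile normalization repeated and with the Gapdh covariate. Eif2ak2 was −0.07 and Uba7 0.03 with the mean of their probe sets, Ifit2 was 0.06 and Bst2 0.01 with the Gapdh covariate, and Psmb6 was −0.02 and −0.03 with quantile normalization and centring. With 1 array left out, the ranges of the genes whose sign turned were −0.36 to 0.00 for Psmb8, −0.22 to 0.37 for Tap2, −0.05 to 0.05 for B2m, −0.02 to 0.24 for Irf1, −0.16 to 0.26 for Eif2ak2, −0.29 to 0.18 for Ifit2, −0.30 to 0.18 for Mx2, −0.36 to 0.12 for Bst2, −0.06 to 0.36 for Parp14 and −0.53 to 0.01 for Gbp2. Outside the members they were −0.37 to 0.11 for Ifna5, −0.01 to 0.18 for Psma2, −0.19 to 0.10 for Uba7, −0.20 to 0.19 for Psmb6, −0.40 to 0.16 for Psme1, −0.09 to 0.14 for Ifng and −0.27 to 0.08 for Ksr2.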

Other observations

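Of the 40 measured members, 16 had more than 1 single-gene probe set, and 4 of their 23 other probe sets had the opposite sign to the one used, before rounding, in Tap1, B2m, Eif2ak2 and Rtp4. The widest was a dim probe set of Eif2ak2, with a mean of 4.08, which differed by −0.43 where the probe set used differed by 0.09. A dim probe set of Rtp4, with a mean of 3.42, differed by 0.04 where the one used differed by −0.57, and its groups overlapped. The second probe set of Gbp2 differed by −0.07 beside −0.18.

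Markers of other cell types were read on the same arrays. Endothelial markers, 6 of 8 above 0, had means of 6.82 to 7.36 in wild type and 6.82 to 7.43 in knockout. Mammary epithelial markers, 1 of 8 above 0, had a mean of 6.66 in wild type 3 and 5.81 in knockout 3 and of 4.48 to 4.83 on the other arrays. Mesothelial markers, 5 of 6 above 0, had means of 7.77 and 8.76 on wild type 3 and knockout 3 and of 6.79 to 7.19 on the other arrays. Lymph node stroma markers, 3 of them measured, had means of 5.34 to 6.27 in wild type and 5.19 to 6.01 in knockout.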
